A study of Mus musculus with 8 samples.

Results

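The genes described here carry the names of the moving parts of the flagellum: axonemal dynein chains (Dnah, Dnai, Dnali), dynein assembly factors (Dnaaf), radial spoke proteins (Rsph), nexin-dynein regulatory complex proteins (Drc) and cilia and flagella associated proteins (Cfap). They were chosen by symbol alone: every gene whose current symbol starts with one of these 7 stems followed by a digit, with the probe set of the highest mean intensity standing for the gene. Of 18193 genes with a probe set of a single symbol, 49 met the rule, with 81 probe sets between them. They comprised 10 Dnah genes, 1 Dnali gene, 5 Dnaaf genes, 6 Rsph genes, 2 Drc genes and 25 Cfap genes. Of the 49, 44 passed a filter on dim values and were tested among 13787 genes. Another 18 genes of these names in the current gene table were not analysed here.

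The values come from whole testes of mice aged 27 days, 1 Affymetrix array per mouse, with 4 mice labelled mutant and 4 labelled wild type. The mutants are Brwd1-/- by the design text and received no treatment, and Brwd1 encodes a protein with bromodomains and WD repeats. The controls are called wild type in their titles, but their genotype entry reads Brwd1+/-, so they may carry 1 mutant copy. By the design text the age was chosen so that changes in spermatids would show, after meiosis and midway through later development.

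The axoneme is the microtubule core of cilia and of the sperm tail, built of outer doublets around a central pair. Dynein arms on the doublets make them slide. Radial spokes and the nexin-dynein regulatory complex turn that sliding into bending, and assembly factors build the dynein arms in the cytoplasm before they are carried into the flagellum. In the testis many of these genes are first transcribed in spermatocytes, and the tail is built in spermatids. Axonemal genes are also active in the ciliated cells that line the ducts joining testis and epididymis.

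Every array as deposited had the same trimmed mean, 500, and array medians lay between 90.3 and 124. The Brwd1 probe set read 365 ± 71.0 in mutants and 290 ± 46.7 in wild type (SD, n = 4 each), a difference of 0.31 log2 units that did not pass the test (limma adjusted p = 0.766), so transcript level at this probe set did not separate the labels. Replicates 1 and 2 of both genotypes stood apart from replicates 3 and 4. The summed intensity of 6 epididymis markers was 36460 to 42586 in the 4 mice numbered 3 or 4, against 181 to 406 in the 4 mice numbered 1 or 2. In all, 3 fits were therefore set side by side: no block, the replicate number as a block (the replicate block), and the split of replicates 1 and 2 from 3 and 4 as a block (the split block). The test was limma on log2(intensity + 16), with Benjamini-Hochberg adjustment over all 13787 genes and a threshold of 0.05. All mutant minus wild-type differences are on that log2 scale, which understates the change of dim genes. In whole testis, fewer cells of a type and less RNA per cell cannot be told apart.

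The difference between genotypes was within 0.5 log2 units for 41 of 44 axonemal genes, 93.2%, against 90.1% of all genes tested. In the fits with a block 1 gene, Cfap97d1, was called lower in the mutants. Without a block 0 of the 44 tested members were called lower, against 0.268% of all genes, and 0 were called higher, against 0.0145%. At an unadjusted limma p under 0.05 without a block, 5 members passed: Rsph14, Rsph3a, Cfap126, Cfap157 and Cfap97d1. They are 11.4% of the members tested, and 9.56% of all genes passed in the same way. With the replicate block 11 members, 25% of them, had an unadjusted p under 0.05, against 17.1% of all genes, and with the split block 10 members, 22.7%, against 17.6%. With the replicate block 1 member, 2.27% of them, was called lower, against 3.12% of all genes, and 0 were called higher, against 0.326%. With the split block 1 member, again 2.27%, was called lower, against 2.16% of all genes, and 0 were called higher, against 0.471%. The called gene was Cfap97d1 both times.

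The median difference of the 44 members was -0.05, beside 0.07 over all genes tested. In absolute size the median was 0.15 both for the members and for all genes. Of the 44 members 26 had a negative difference, which is 59.1% of them, and 37.2% of all genes had one. A difference within 0.5 of 0 was measured for 41 members, 93.2% of them, against 90.1% of all genes. Only Cfap97d1 lay at -1 or below, against 4.15% of all genes. With the replicate block the 95% interval of the difference lay within 1 log2 unit of 0 for 41 of the 44, against 90.4% of all genes, and the exceptions were Cfap97d1, Cfap157 and Rsph14. Without a block 38 of the 44 had so narrow an interval, against 80.5% of all genes.

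**Figure D1:**
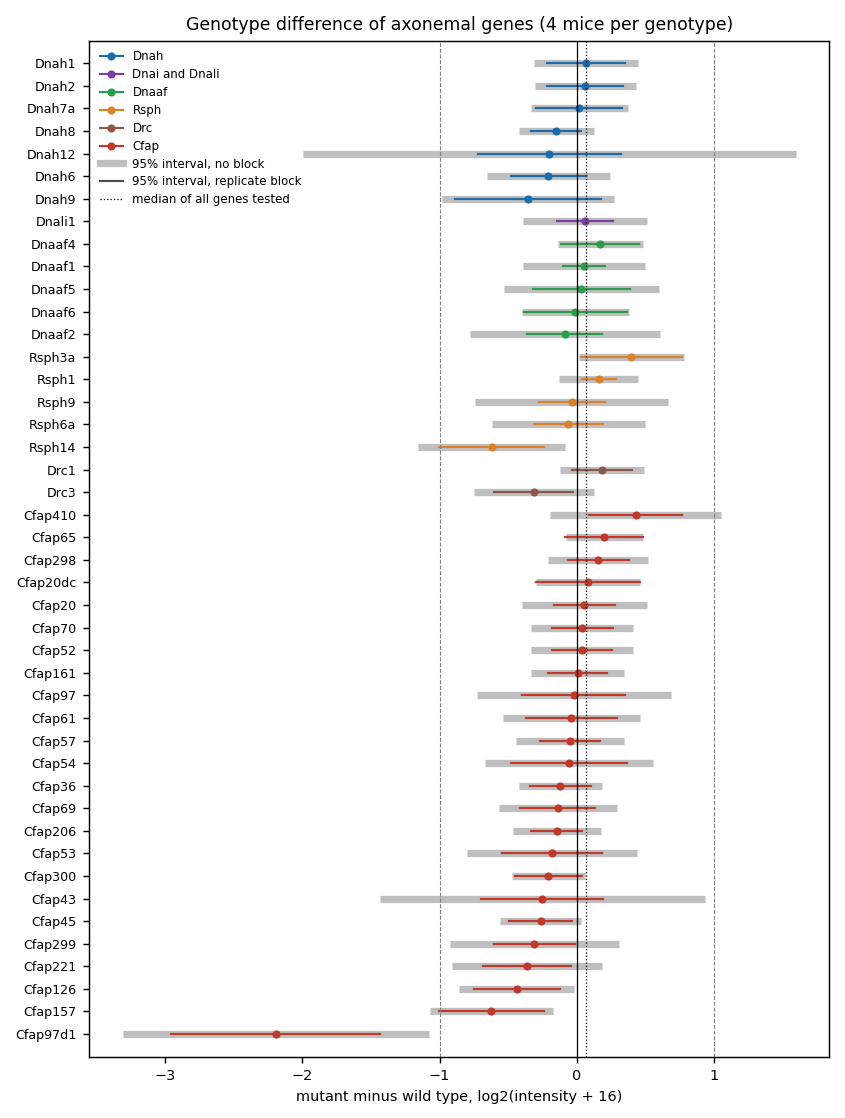
Difference of mutant minus wild type, in log2(intensity + 16), for each of the 44 axonemal genes tested, grouped by subfamily. Points are the fitted differences, grey bars the 95% intervals without a block and coloured lines those with the replicate block; the dotted line marks the median of all genes tested, 0.07. Cfap97d1 at -2.19 stands alone on the left, and 41 of the 44, 93.2%, lie within 0.5 of 0, as do 90.1% of all genes tested.

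By subfamily, the median differences lay close together. The median was -0.15 for the 7 Dnah genes tested, 0.06 for Dnali1 alone, 0.03 for the 5 Dnaaf genes, -0.04 for the 5 Rsph genes, -0.07 for the 2 Drc genes and -0.09 for the 24 Cfap genes. Without mutant replicate 1 the medians were -0.05 for Dnah, 0.00185 for Dnali1, -0.00103 for Dnaaf, -0.12 for Rsph, 0.00160 for Drc and -0.01 for Cfap, so that 1 mouse moved each of them. Only the Cfap genes held a called member. Within replicates 1 and 2 the median over all members was -0.08 and within replicates 3 and 4 it was -0.01, where all genes had 0.09 and 0.03. Levels in wild type are given as probe set intensities, which depend on each probe set's own affinity, so they describe brightness and do not rank transcripts. Among the tested genes, wild-type means ran over 220 to 15687 for Dnah, with a median of 1424. They ran over 351 to 13024 for Dnaaf, with a median of 1680, over 320 to 20665 for Rsph, with a median of 2231, and over 168 to 10054 for Cfap, with a median of 2538. Dnali1 read 3733, and the Drc pair 803 and 2228. All genes tested had a wild-type median of 594, and the 5 members below the filter had wild-type means of 14.6 to 64.8.

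Cfap97d1 is a testis gene on chromosome 11 whose loss in mice disturbs the sperm axoneme and male fertility. Its intensity was 61.7, 270, 254 and 462 in mutant replicates 1 to 4, against 787, 1169, 1372 and 929 in wild-type replicates 1 to 4. Every mutant lay below every wild-type mouse, and mutant replicate 1 was the lowest of the 8. The means were 262 ± 163 in mutants and 1064 ± 259 in wild type (SD, n = 4 each), a difference of -2.19 ± 0.49 (SE) log2 units. It missed the threshold without a block (limma adjusted p = 0.101) and passed it with the replicate block (0.0214) and the split block (0.0370). Taken alone, replicates 1 and 2 gave a difference of -2.71 and replicates 3 and 4 one of -1.67. Without mutant replicate 1 it was -1.67, with a limma adjusted p of 0.0328 without a block, where 1.31% of all genes were called lower and 0.029% higher, and no member was called higher. The call was not stable to the loss of single mice: with the split block the adjusted p was 0.123 without mutant replicate 3, 0.106 without wild-type replicate 1, 0.135 without wild-type replicate 2 and 0.130 without wild-type replicate 3. With the replicate block it was 0.151 without the mice numbered 2 and 0.117 without those numbered 3. The gene has 1 probe set on the array, so no other probe set checks the value.

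The promoter window of Cfap97d1 is shown as that of the called member, and that of Cfap161 as the member holding the most letters that match the binding sequence of RFX factors, regulators of ciliary genes. Each window runs from 250 bases before to 50 bases after the RefSeq start of the gene in GRCm38.p6, 5′ to 3′ on the gene's own strand: chr11:101986806-101987105 (+) for Cfap97d1 and chr7:83794790-83795089 (-) for Cfap161. Capitals mark GTTGCC or its reverse complement GGCAAC, the core of the RFX site, and the longer GTTGCCATG or CATGGCAAC, which contains it.
Cfap97d1: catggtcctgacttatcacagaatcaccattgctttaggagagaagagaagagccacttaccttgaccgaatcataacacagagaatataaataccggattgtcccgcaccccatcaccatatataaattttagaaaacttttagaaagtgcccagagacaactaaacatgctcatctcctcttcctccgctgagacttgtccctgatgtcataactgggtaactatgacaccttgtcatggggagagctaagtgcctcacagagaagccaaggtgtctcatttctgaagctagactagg
Cfap161: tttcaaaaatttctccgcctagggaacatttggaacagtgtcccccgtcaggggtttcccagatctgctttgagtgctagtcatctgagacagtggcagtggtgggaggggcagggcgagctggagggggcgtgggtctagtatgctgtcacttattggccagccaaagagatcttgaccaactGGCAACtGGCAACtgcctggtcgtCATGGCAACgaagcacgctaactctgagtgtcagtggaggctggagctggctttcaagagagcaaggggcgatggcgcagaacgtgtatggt
The Cfap97d1 window holds none of these letters and no TGACGTCA, the cAMP response element. In the Cfap161 window 3 such cores lie close together, the first at position 185 of 300, and the third is part of the longer match. Cfap161, a protein of the inside of the doublet microtubules, read 3598 ± 511 in mutants and 3591 ± 512 in wild type (SD, n = 4 each), a difference of 0.00 that did not pass the test.

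Of the 49 members 40 have a window in the RefSeq table, and motifs were counted on both strands. GTTGCC occurred in 11 of the 40, 27.5%, against 14.1% of 27025 genes. Those members were Dnah7a, Dnaaf2, Dnaaf4, Dnaaf5, Dnaaf6, Drc1, Cfap20, Cfap20dc, Cfap161, Cfap298 and Cfap300, so 4 of the 5 assembly factors are among them. The extended GTTGCCATG occurred in Cfap161 alone, 2.5% of the members against 0.877% of genes, and TGACGTCA in Dnah6 alone, 2.5% against 2.03%. These are matches of letters in a fixed window and not sites of binding.

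The heavy chains, the motor subunits, did not pass the test in any of the 3 fits. Dnah8, an outer arm heavy chain of sperm and the brightest of the subfamily, read 12079, 13572, 15578 and 15289 in mutants 1 to 4 and 13915, 17479, 16956 and 14396 in wild type 1 to 4. The genotypes overlapped and the difference was -0.15, with a replicate-block interval of -0.33 to 0.03. Among inner arm heavy chains, Dnah1 read 2466 ± 543 in mutants and 2320 ± 166 in wild type, a difference of 0.06, and Dnah2 read 3020 ± 526 in mutants and 2885 ± 411 in wild type, also 0.06 (SD, n = 4 each). Dnah6 and Dnah7a, inner arm chains too, had differences of -0.21 and 0.02. Dnah9, an outer arm chain best known from airway cilia, had the most negative difference of the subfamily at -0.36. It read 88.9, 218, 183 and 209 in mutants and 213, 250, 251 and 166 in wild type, so the genotypes overlapped and mutant replicate 1 was the lowest mouse, without which the difference was -0.09.

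Another 3 heavy chains stayed below the filter, a mean of log2 values equal to an intensity of 63.1, and were not tested. Dnah17, the other outer arm heavy chain known from sperm, read 38.2 ± 15.5 in mutants and 24.4 ± 16.4 in wild type. Dnah5, an outer arm chain of airway cilia, read 53.7 ± 26.9 in mutants and 61.0 ± 21.1 in wild type (SD, n = 4 each). The Dnah11 probe set, for another such chain, read 20, 41.0, 135 and 110 in mutants and 34.4, 18.6, 103 and 103 in wild type. For Dnah11 the 4 mice numbered 3 or 4 lay above the 4 numbered 1 or 2 in both genotypes, as the epididymis markers did, and the part of the split in it was not tested. The other outer arm chains of airway cilia did not show this order. Dnah5 had means of 51.1 in mice numbered 3 or 4 and 63.5 in those numbered 1 or 2. Dnah9 had a split of 0.14 log2 units (limma adjusted p = 0.709, split block). A probe set shared by Dnah7b and Dnah7c, and so outside the rule, read 2938 ± 1255 in mutants and 3424 ± 856 in wild type, a difference of -0.28.

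Dnali1, the light intermediate chain of inner arms, read 3920 ± 929 in mutants and 3733 ± 667 in wild type (SD, n = 4 each), a difference of 0.06. The intermediate chains known as Dnai1 and Dnai2 appear in the gene table under the older names Dnaic1 and Dnaic2, so the rule did not take them. They were looked up after the values were seen, and their differences were -0.15 and -0.28 without a call in any of the 3 fits.

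The assembly factors lay nearest to 0. Dnaaf1, the brightest of them, read 14786, 17131, 11088 and 11012 in mutants 1 to 4 and 14642, 15838, 11858 and 9757 in wild type 1 to 4. Its difference was 0.05, with a replicate-block interval of -0.10 to 0.20, and the spread lay between replicate numbers and not between genotypes. Dnaaf4 had the most positive difference of the 5 at 0.17 and Dnaaf2 the most negative at -0.09. Dnaaf5 stood at 0.03, and Dnaaf6, the dimmest, read 349 ± 65.3 in mutants and 351 ± 47.3 in wild type, a difference of -0.01. Another 10 assembly genes without a Dnaaf name, among them Zmynd10, Spag1 and Ruvbl1, gave 0 calls in the 3 fits and a median of 0.02.

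The radial spoke genes pointed both ways without a call. Rsph14 had the most negative difference at -0.62 and read 356, 506, 253 and 332 in mutants 1 to 4 and 676, 630, 519 and 409 in wild type 1 to 4. The genotypes overlapped through mutant replicate 2 and wild-type replicate 4, and within each replicate number the mutant was the lower mouse. The labels state no pairing of mice by number, so such comparisons, here and for genes below, only describe the values. The share of all genes with the same order in every number was not counted. Rsph14 had a limma adjusted p of 0.400 without a block, of 0.0958 with the replicate number blocked and of 0.0716 with the split block. Rsph3a, a spoke stalk gene, had the most positive difference at 0.40 and read 502, 404, 479 and 332 in mutants and 340, 290, 293 and 355 in wild type. Only replicate 4 of the mutants fell into the wild-type range, and the limma adjusted p was 0.489 without a block and 0.259 with the replicate block.

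Rsph1, a spoke head gene and the brightest member, read 24117, 25858, 20732 and 21237 in mutants and 22525, 23826, 18997 and 17313 in wild type. The mutant was the higher mouse in each replicate number, yet the genotypes overlapped and the difference was 0.16, with a limma adjusted p of 0.185 with the replicate block. Rsph6a, a spoke head gene of sperm, and Rsph9 had differences of -0.06 and -0.04. Rsph4a, a spoke head gene known from motile cilia, stayed below the filter with 25.9 ± 12.7 in mutants and 24.9 ± 14.7 in wild type. A probe set shared by Rsph3a and Rsph3b, outside the rule, read 20653 ± 2626 in mutants and 17774 ± 2724 in wild type (SD, n = 4 each), a difference of 0.22 with a limma adjusted p of 0.0943 with the replicate block.

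Of the nexin-dynein regulatory complex, Drc1 read 2530 ± 315 in mutants and 2228 ± 230 in wild type, a difference of 0.18. Drc3 read 648 ± 138 in mutants and 803 ± 130 in wild type (SD, n = 4 each), a difference of -0.31 with a limma adjusted p of 0.251 with the replicate block. Neither passed the test, and 8 genes of the same complex without a Drc name, among them Gas8 and Iqcg, gave 0 calls and a median of -0.11.

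The differences of the 24 Cfap genes covered the widest range of the 6 subfamilies, with Cfap97d1 at one end and Cfap410 at the other. They are also the largest subfamily, and a range widens with the number of genes. Without Cfap97d1 they ran from -0.62 to 0.43, beside -0.62 to 0.40 for the 5 Rsph genes. Cfap157, needed for normal sperm tails in mice, was the other member whose genotypes did not overlap. It read 259, 422, 409 and 394 in mutants and 575, 686, 591 and 453 in wild type, a difference of -0.62. Cfap157 had a limma adjusted p of 0.251 without a block, and of 0.0958 and 0.126 with the replicate and split blocks. These 2 genes are 4.55% of the members tested, and in 5.26% of all genes every mutant lay below every wild-type mouse. No member had every mutant above every wild-type mouse, against 2.53% of all genes. Cfap126, which positions basal bodies in ciliated cells, read 3057 ± 695 in mutants and 4127 ± 695 in wild type, a difference of -0.44 that was not called. Cfap410 read 1119, 849, 581 and 460 in mutants and 657, 552, 496 and 421 in wild type, a difference of 0.43 with a limma adjusted p of 0.189 with the replicate block. The mutant was the higher mouse of Cfap410 in each replicate number, and both genotypes were brighter in replicates 1 and 2.

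**Figure D2:**
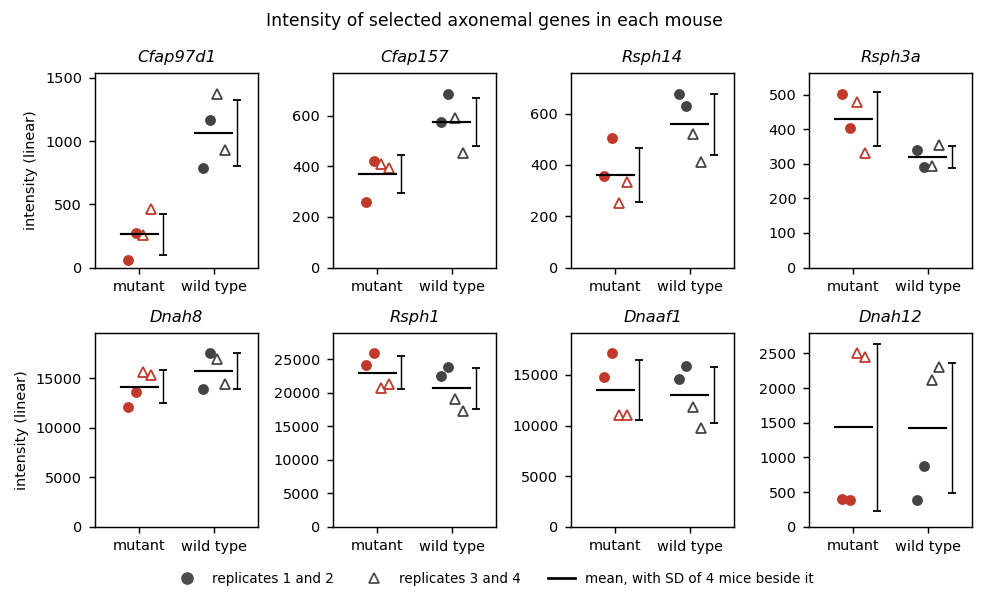
Linear intensity of 8 axonemal genes in each mouse, mutants in red on the left and wild type in grey on the right; filled circles are replicates 1 and 2, open triangles replicates 3 and 4, horizontal lines the means and side bars the SD of 4 mice. Cfap97d1 and Cfap157 show no overlap between genotypes, while Dnah12 separates by replicate number and not by genotype.

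Of the other Cfap genes known from sperm tail defects, Cfap43, Cfap65 and Cfap69 had no called difference in any of the 3 fits. Cfap43 read 2296 ± 1499 in mutants and 2450 ± 1017 in wild type, a difference of -0.25 with a wide interval without a block, -1.44 to 0.93. Cfap65 read 2083 ± 160 in mutants and 1817 ± 193 in wild type, a difference of 0.20. Cfap69 read 3729 ± 969 in mutants and 4024 ± 421 in wild type (SD, n = 4 each), a difference of -0.14. The signs of Cfap43 and Cfap69 turned within replicates 3 and 4, where the differences were 0.13 and 0.07. Cfap44 and Cfap58 were not analysed here.

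Among doublet inner proteins, the difference was 0.05 for Cfap20, 0.04 for Cfap52, -0.18 for Cfap53 and -0.26 for Cfap45. The mutant was the lower mouse for Cfap45 in each replicate number, with a replicate-block interval of -0.49 to -0.04 and a limma adjusted p of 0.222 with that block. The 11 microtubule inner protein genes without a Cfap name had a median of -0.35, with 10 of them negative. Genes of the central apparatus were Cfap54 at -0.06 and Cfap221 at -0.36, and Cfap47 of the same apparatus stayed below the filter with 15.8 ± 8.63 in mutants and 14.6 ± 8.66 in wild type (SD, n = 4 each). Cfap206 and Cfap61, which belong to the base of the radial spokes, had differences of -0.15 and -0.04. Cfap298 and Cfap300, which take part in dynein arm assembly, had 0.15 and -0.21. Cfap97, the brightest Cfap gene, read 10292 ± 4155 in mutants and 10054 ± 2498 in wild type, a difference of -0.02, and its 2 dimmer probe sets above the filter stood at -0.47 and -0.30. None of the tested Cfap genes among these passed the test in any of the 3 fits. Of the 11 genes without a Cfap name Saxo1 alone was called, with the replicate block.

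Further probe sets of the members were set beside those that stand for the genes. Of the 49 members 26 have 1 probe set and 23 have more, and for 17 more than 1 passed the filter. The 20 further probe sets above the filter had differences of -0.47 to 0.29, and 0 of them were called in any of the 3 fits. In 6 members, Dnaaf2, Dnali1, Cfap20, Cfap43, Cfap57 and Cfap410, the probe sets differed in sign. The gap was as wide as -0.25 and 0.25 for Cfap43, 0.06 and -0.36 for Dnali1, and 0.43 and -0.02 for Cfap410, with the brighter probe set given first.

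Other axonemal genes, taken from lists of dynein light and docking chains, assembly factors, spoke and central pair proteins, nexin-dynein proteins, microtubule inner proteins and regulators of ciliary genes, held more calls. Of 80 tested, Dnaic1, Dnaic2 and 9 transcription regulators included, 7 were lower with the replicate block, 8.75% against the 3.12% of all genes. With the split block 4 were lower, 5%, and without a block 1 was, 1.25%, and the median of the 80 was -0.12. The regulator Rfx3, not itself a part of the axoneme, was 1 of the genes lower with either block. The count with the replicate block was 8 without the mice numbered 1, 0 without those numbered 2 or 3, and 11 without those numbered 4. The share of all genes called in those fits is not set beside them. These counts therefore show that the calls moved, and not a change particular to these genes. The gene called in all 3 fits was Dydc2, a spoke protein with a Dpy-30 motif. It read 78.4, 117, 95.8 and 109 in mutants and 382, 661, 553 and 333 in wild type, without overlap, a difference of -2.06 with a limma adjusted p of 0.0229 without a block. That call was lost without mutant replicate 3 or without wild-type replicate 1, 2 or 3, with adjusted p-values of 0.0979, 0.0890, 0.0683 and 0.112 in that order. Dynll2, an LC8 light chain shared with other motors, had a difference of -1.13, but its second probe set above the filter stood at 0.13.

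Morn3, at -1.83, and the regulator Rfx3, at -1.07, were called with both blocks. Rfx3 read 135, 207, 184 and 186 in mutants and 434, 417, 399 and 308 in wild type, and its second probe set above the filter stood at 0.02. Another 3 genes were called with the replicate block alone: the Tctex-type light chain Tctex1d1 at -2.12, ropporin (Ropn1), which binds A-kinase anchoring proteins in the tail, at -1.69, and the microtubule stabiliser Saxo1 at -1.65. Saxo1 read 88.8 in mutant replicate 1, against 401 to 420 in the other mutants, and without that mouse its difference was -1.14. The difference in call rate between these genes and the 44 members was not tested.

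**Figure D3:**
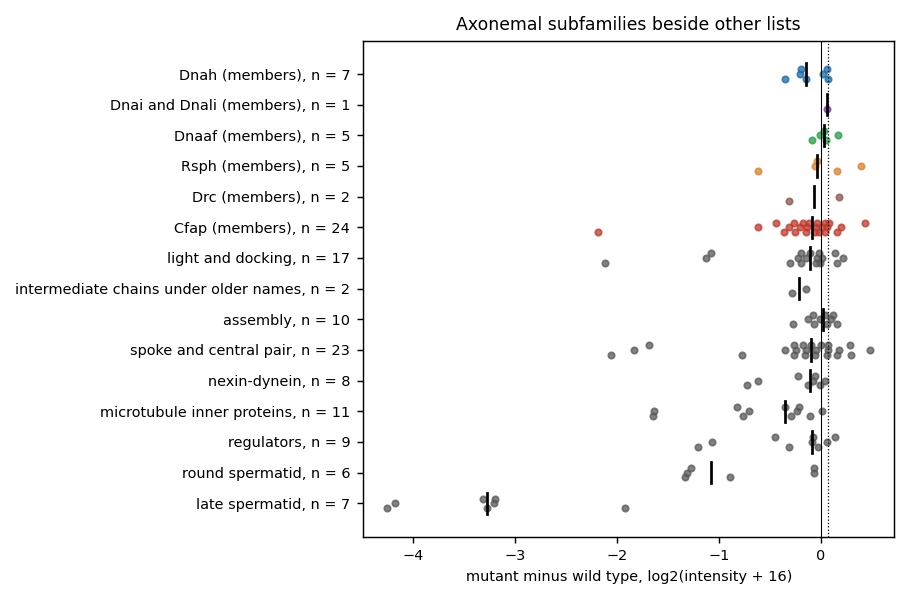
Difference of mutant minus wild type in log2(intensity + 16) for the 6 subfamilies, the other axonemal lists and the round and late spermatid markers; each point is a gene, bars are list medians and the dotted line is the median of all genes tested. The subfamilies centre between -0.15 and 0.06, while late spermatid markers centre at -3.28.

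Markers of late spermatids moved with genotype in the same arrays. The median difference of 7 such genes, among them the protamines Prm1 and Prm2 and the transition proteins Tnp1 and Tnp2, was -3.28. All 7 were called lower with the replicate block, 6 with the split block and 1 without a block. Their summed intensity was 2256 to 18209 in mutants and 61647 to 109025 in wild type. The 6 round spermatid markers had a median of -1.08 with 0 called by adjusted p in the 3 fits, and their summed intensity was 6579 to 14339 in mutants and 14125 to 20907 in wild type. They did not move as a group. Acr and Spata16 stood at -0.07 each, and Acrv1, Tssk1, Catsper1 and Spaca1 at -1.34, -1.32, -1.27 and -0.89. Without mutant replicate 1 the median was -2.64 for late and -0.59 for round spermatid markers. The 8 pachytene spermatocyte markers had a median of -0.03, with Pgk2 alone called with either block. The part of late spermatid RNA in the difference of Cfap97d1 was not tested.

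More members were called by the split of replicates than by genotype, and the same held for all genes tested. In the fit with the split block, 10 of the 44, 22.7%, were higher in replicates 3 and 4 than in replicates 1 and 2. Of all genes 22.2% were. Another 14 members, 31.8%, were lower, against 20.3% of all genes. The higher group was made of Dnah6, Dnah12, Drc3 and 7 Cfap genes (Cfap43, Cfap53, Cfap54, Cfap57, Cfap69, Cfap97 and Cfap299). Dnah12, an inner arm heavy chain, read 2500 and 2451 in mutants 3 and 4 and 2122 and 2299 in wild type 3 and 4. The same probe set read 399 and 389 in mutants 1 and 2 and 394 and 879 in wild type 1 and 2. The split was 2.24 log2 units for Dnah12, 1.43 for Cfap43 and 0.79 for Cfap97, and the genotypes overlapped in each.

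The lower group held Dnah1, Dnali1, 3 of the 5 assembly factors (Dnaaf1, Dnaaf2 and Dnaaf5), 4 of the 5 radial spoke genes (Rsph1, Rsph6a, Rsph9 and Rsph14) and 5 Cfap genes (Cfap20, Cfap52, Cfap161, Cfap298 and Cfap410). Rsph9 was lower by the widest margin, at -0.84, followed by Dnaaf2 at -0.83. The split of Rsph9 showed as 2724 and 2488 in mutants 3 and 4 and 3220 and 2433 in wild type 3 and 4, beside 4417 and 5439 in mutants 1 and 2 and 4946 and 4667 in wild type 1 and 2. Epididymis markers moved with this split by a median of 6.71 log2 units over 6 genes. Of the listed markers of multiciliated cells, 5 were on the array and only Ccno and Deup1 were bright enough to be tested. Their split differences were 0.40 and 0.64, with limma adjusted p-values of 0.135 and 0.0947, so neither was called. Between genotypes they went opposite ways, 0.48 for Ccno and -0.86 for Deup1, without a call. The part of epididymal or duct tissue in the split was not tested.

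**Figure D4:**
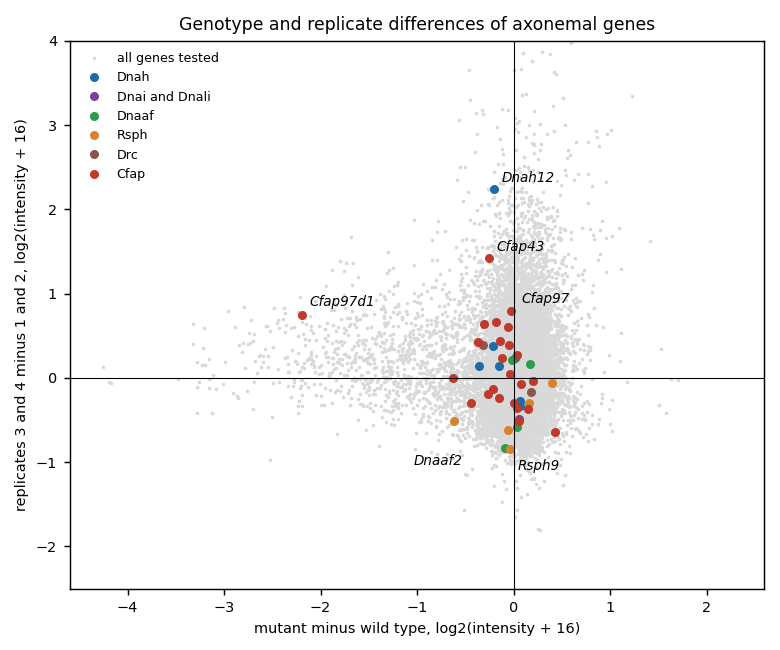
Each point is a gene: the horizontal axis gives mutant minus wild type and the vertical axis replicates 3 and 4 minus replicates 1 and 2, both in log2(intensity + 16), with axonemal subfamilies coloured and all genes tested in grey; 26 genes lie outside the axes. The axonemal genes spread along the vertical axis, between -0.84 for Rsph9 and 2.24 for Dnah12, and Cfap97d1 alone lies far to the left.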

How the data were processed

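Total RNA of whole testis from 8 mice, 4 per genotype, was hybridised as biotin-labelled cRNA, 1 array per mouse, per the labels. The authors deposited intensity values on a linear scale, made with GCOS per the submitters' processing notes, whose version is not given in the sources used here. The deposited table has 45101 probe sets per array and no detection calls, so distance from background is unknown, and precision rests on 4 arrays per genotype. The 64 control probe sets were left out, and of the others 34945 have 1 gene symbol, 932 several and 9160 none. Symbols of 34741 probe sets were updated through Entrez identifiers to the RefSeq table of GRCm38.p6, which also gave chromosomes and promoter sequences.

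Values were taken as log2(intensity + 16). Probe sets with a mean log2 value above the 40th percentile were kept (27022), the brightest stood for each gene (13787 genes), and genotypes were compared with limma 3.58.1 in R 4.3.3 (lmFit, eBayes with intensity trend, two-sided). Without a block the spread behind each p-value is that between mice of the same genotype. With a block it is what remains between mice once differences between blocks are taken out. In each fit limma also drew it toward a trend with intensity over all genes. Fits with the replicate number or the split of replicates 1 and 2 from 3 and 4 as a block were alternatives. Mice of the same number deviated together (r between 0.515 and 0.677 in the 4 pairs), which counts as pairing by the rule used, although the labels state none and for 3 of the 8 mice alone the best match in the other genotype had their own number. The test was run on simulated data with independent noise for each array and the split of replicates. The simulation held no shared deviation of mice of the same number and no mouse low in many genes. It therefore does not check the replicate block or the effect of leaving out single mice. Figures were drawn with matplotlib 3.10.9.

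Named genes were members called in any fit, the extremes and the dimmest and brightest of each subfamily, known sperm tail genes, and called genes of the other lists. Other members named in counts or groups were chosen after their values were seen. The members, lists and the split were chosen with earlier results of these data known.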

Additional observations from a re-analysis of the deposited data

Results flagged for a closer look

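In 60 groups of 4 mice, each a named gene in 1 genotype, 1 mouse lay far from the other 3 by the ratio of its gap to the range of the group; chance gives about 1 in 20. This was the Saxo1 value of mutant replicate 1, at 88.8, where the other mutants read 401 to 420. Without this mouse the difference of Saxo1 was -1.14 log2 units (limma adjusted p = 0.0416 without a block), beside -1.65 with all 8 mice (0.174).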

How the results depend on the processing

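The alternatives were either block, quantile normalization, median centring, pseudocounts of 1 and 64, no filter or the 60th percentile, averaged probe sets, no trend, and leaving out single mice or replicate numbers. Leaving out mice with a block was added after seeing the data. No member was called higher in any of them. Members called lower numbered 0 without a block, 1 with the replicate block, 1 with the split block, 1 with the split block without mutant replicate 1, and 0 to 1 when mice were left out. Over 32 alternatives Cfap97d1 had a limma adjusted p of 0.00223 to 0.337, with 9 calls, and differences of -2.71 to -1.67. The other axonemal genes called numbered 1 without a block, 7 with the replicate block, 4 with the split block, 9 with the split block without mutant replicate 1, 2 with a pseudocount of 64, 0 within replicates 1 and 2, 0 within replicates 3 and 4, and 0 to 11 when mice were left out. Beyond these, the replicate block moved the late spermatid markers called to 7, against 1 without a block, and Pgk2 to a call. Calls over all genes moved as well. The share called lower was 0.268% unblocked, 2.16% under the split block and 3.12% under the replicate block. Dropping mutant replicate 1 from the unblocked fit gave 1.31%. For the other alternatives no such share is set beside the counts. Those counts therefore cannot show a change particular to axonemal genes. Subfamily medians moved too. With all mice, within replicates 1 and 2 and within replicates 3 and 4, they were -0.15, -0.28 and -0.02 for Dnah. In the same order they were -0.09, -0.24 and -0.02 for Cfap, -0.04, 0.05 and -0.10 for Rsph, and 0.03, 0.06 and 0.04 for Dnaaf. These moves were not compared with the spread between mice.

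Signs turned for members near 0, and the cause was not tested. Within replicates 3 and 4 the differences were 0.129 for Cfap43, 0.0743 for Cfap69, 0.235 for Cfap97, 0.123 for Dnaaf6, -0.152 for Dnah1 and -0.00613 for Dnali1. With the mean of probe sets they were 0.0229 for Cfap43, 0.0698 for Dnaaf2 and -0.152 for Dnali1. With the split block without mutant replicate 1 they were 0.0463 for Dnaaf6 and -0.0107 for Dnah2, and with quantile normalization -0.0131 for Dnaaf1. Leaving out mice gave -0.587 to 0.0641 for Cfap43, -0.219 to 0.215 for Cfap97, -0.0791 to 0.154 for Dnaaf1, -0.298 to 0.0645 for Dnaaf2, -0.184 to 0.0717 for Dnaaf6, -0.0358 to 0.166 for Dnah1, -0.0450 to 0.153 for Dnah2 and -0.0717 to 0.179 for Dnali1. Over all named genes and alternatives, 758 results kept direction and side of the threshold, 48 gained a call, 8 lost one and 50 turned sign. Without detection calls, how far dim members such as Dnah17 lie above background is unknown.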
